A study of Mus musculus with 12 samples.

Results

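Genes of the SREBP pathway, which make cholesterol and fatty acids, were described in RNA-seq libraries of mouse embryonic stem cells taken towards germ cells with or without bisphenol A (BPA), a plastics monomer with oestrogen-like activity. The members were 30 listed gene symbols, all found in the deposited expression tables and linked by Ensembl ID to the count files, out of 21728 genes in any count file. They were ordered by pathway step as 19 enzymes of sterol synthesis, 6 regulators and carriers, and 5 enzymes of fatty acid synthesis and desaturation. All 30 passed the filter on low counts in every comparison.

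The 4 groups had 3 libraries each and came from C57BL/6 cells carrying the reporters Blimp1-mVenus and Stella-ECFP (BVSC), which mark Prdm1 and Dppa3 expression. BPA-arm PGCLCs (primordial germ cell-like cells) and untreated PGCLCs were day 5 cells, sorted from aggregates for both reporters. EpiLCs (epiblast-like cells) given 100 nM BPA and untreated EpiLCs were harvested without a stated sort after 48 h of culture, with BPA added 24 h after seeding and kept for 24 h. The labels place the BPA exposure in the EpiLC culture and leave unstated if the medium of the PGCLC aggregates held any. No label says that libraries of 1 group came from separate cultures, so every p-value measures the spread between these libraries only.

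SREBP-2 and SREBP-1 (from Srebf2 and Srebf1) are transcription factors held in the endoplasmic reticulum membrane by Scap and the Insig proteins while sterols are plentiful. When sterols run low, Scap carries them to the Golgi, proteases free their active part, and it binds sterol regulatory elements in the promoters of lipid synthesis genes, usually together with nuclear factor Y and Sp1. SREBP-2 acts mainly on cholesterol genes and SREBP-1c mainly on fatty acid genes. Insig1 and both Srebf genes are themselves targets, so that their transcripts can follow the pathway's own activity, which these libraries do not measure. Cells that divide quickly in early embryos need new membrane sterols and fatty acids, and loss of several of these enzymes stops mouse development.

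Assigned reads per library ran from 11785338 to 34309195. The least counted member, Fdps, had 61 to 304 reads per library, and the most counted, Fasn, had 17208 to 44483. The cell labels were checked with 2 lists of markers. All 7 germ cell markers were higher in untreated PGCLCs than in untreated EpiLCs, with Prdm1 at 191 ± 11.3 CPM (reads scaled to a common library total, with TMM factors) in PGCLCs and 10.5 CPM in EpiLCs and Dppa3 at 234 ± 24.3 CPM in PGCLCs and 17.2 CPM in EpiLCs (SD, n = 3). Of 6 formative epiblast genes, 4 were lower in untreated PGCLCs, with Dnmt3b at 192 CPM in PGCLCs and 638 CPM in EpiLCs. Of the others, 1 was higher, at a log2 change of 2.75, and 1 passed the threshold in neither direction. Over all genes tested in this comparison, 30.4% were higher in untreated PGCLCs and 25.2% lower. Untreated EpiLC replicate 3, whose description carries the replicate number 2 while its title, followed here, gives 3, stood apart: 14.3% of its counts were ribosomal protein transcripts, against 8.35% to 9.41% in the other EpiLC libraries. The library names follow different schemes in the BPA-arm and untreated PGCLCs and in the 2 stages, and the files of the 3 BPA-arm PGCLC libraries, with that of BPA EpiLC replicate 2, hold a summary line that the others lack. A library batch therefore cannot be told apart from the BPA arm among PGCLCs or from the stage.

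Promoter sequences were searched for exact matches to a few short words, among them a strict and a looser form of the sterol regulatory element. RefSeq windows on GRCm38.p6, from 250 bases before to 50 after the start, were found for 24 of the 30 members, and both strands were searched. The strict sterol regulatory element TCACNCCAC occurred in 1 member, Hmgcs1, and in 1.16% of the 12107 tested genes with a window. The looser word TCACNNCAC occurred in the first window of 3 members, Hmgcs1, Hsd17b7 and Msmo1, and in 3.56% of those genes. Dhcr7 held it in its second window, as TCACTTCAC. The nuclear factor Y word CCAAT occurred in 19 of 24 members, which were 14 of 16 sterol enzymes, 4 of 5 regulators and 1 of 3 fatty acid enzymes, against 38.6% of the tested genes. The Sp1 word GGGCGG was in 18 of 24 members and 62.2% of tested genes, and the E-box CACGTG was in 4 of 24 members and 10.1% of tested genes. These are matches of letters and not shown binding sites. A window without a match is likewise not shown to lack a site, as other forms of the words and sequence outside the window were not searched.

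The stretches below come from the 3 first windows that hold a TCACNNCAC word (the second window of Dhcr7 is not shown), and were chosen because Hmgcs1 holds the strict element and Msmo1 had the largest rise among members in BPA-arm PGCLCs. Capitals mark TCACNNCAC and CCAAT on either strand (ATTGG is CCAAT on the other strand), and each sequence runs 5′ to 3′ along the gene's strand, ending before the RefSeq start. The Hmgcs1 stretch is chr13:119690101-119690350 on the plus strand, with its element at bases -137 to -129 from the start. The Hsd17b7 stretch is chr1:169969242-169969455 on the minus strand and ends where the GENCODE first exon begins. The Msmo1 stretch is chr8:64733653-64733682 on the minus strand, inside the longest GENCODE first exon, and its element at -92 to -84 shares 1 base with a CCAAT at -96 to -92.
Hmgcs1: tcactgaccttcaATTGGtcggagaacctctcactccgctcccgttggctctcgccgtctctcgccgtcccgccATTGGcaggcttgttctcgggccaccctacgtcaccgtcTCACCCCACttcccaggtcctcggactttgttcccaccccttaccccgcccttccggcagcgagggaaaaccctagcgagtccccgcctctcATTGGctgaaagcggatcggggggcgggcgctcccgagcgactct
Hsd17b7: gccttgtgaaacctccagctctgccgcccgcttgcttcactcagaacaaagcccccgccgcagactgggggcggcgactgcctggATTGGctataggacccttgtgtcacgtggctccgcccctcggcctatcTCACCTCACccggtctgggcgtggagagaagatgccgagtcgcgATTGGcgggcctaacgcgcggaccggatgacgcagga
Msmo1: agcacggaCCAATCACTGCACggcgaaggc

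Levels of different genes were compared per kilobase of exon, with the length taken over all annotated exons of a gene together. The ranks depend on that length, which can exceed that of the transcript expressed. Fasn, the fatty acid synthase, and Scd2, a desaturase that adds the double bond of monounsaturated fatty acids, were among the 3 highest members in all 4 groups. Fasn averaged 62.5 CPM per kb in BPA-arm PGCLCs, 65.6 in untreated PGCLCs, 166 in BPA EpiLCs and 153 in untreated EpiLCs. Scd2 averaged 62.3 CPM per kb in BPA-arm PGCLCs, 58.7 in untreated PGCLCs, 265 in BPA EpiLCs and 243 in untreated EpiLCs. Srebf2 ranked 1 of 30 in BPA-arm PGCLCs at 68.9 CPM per kb and 3 in untreated PGCLCs at 46.6, but only 7 in BPA EpiLCs at 67.9 and 9 in untreated EpiLCs at 61.8. In untreated PGCLCs the Fasn libraries, at 64.0 to 68.6 CPM per kb, lay above the Scd2 libraries, at 55.8 to 62.5. In BPA-arm PGCLCs Srebf2 spanned 51.8 to 78.1 CPM per kb and so covered both enzymes, and the order of these 3 was within the spread. Fdps was lowest in every group, at 0.971 CPM per kb in BPA-arm PGCLCs, 0.729 in untreated PGCLCs, 3.17 in BPA EpiLCs and 3.65 in untreated EpiLCs. Its transcript shares 26.2% of its 50-base words with other genes, an overlapping gene model and processed copies among them, so reads may have been lost or split.

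**Figure D1:**
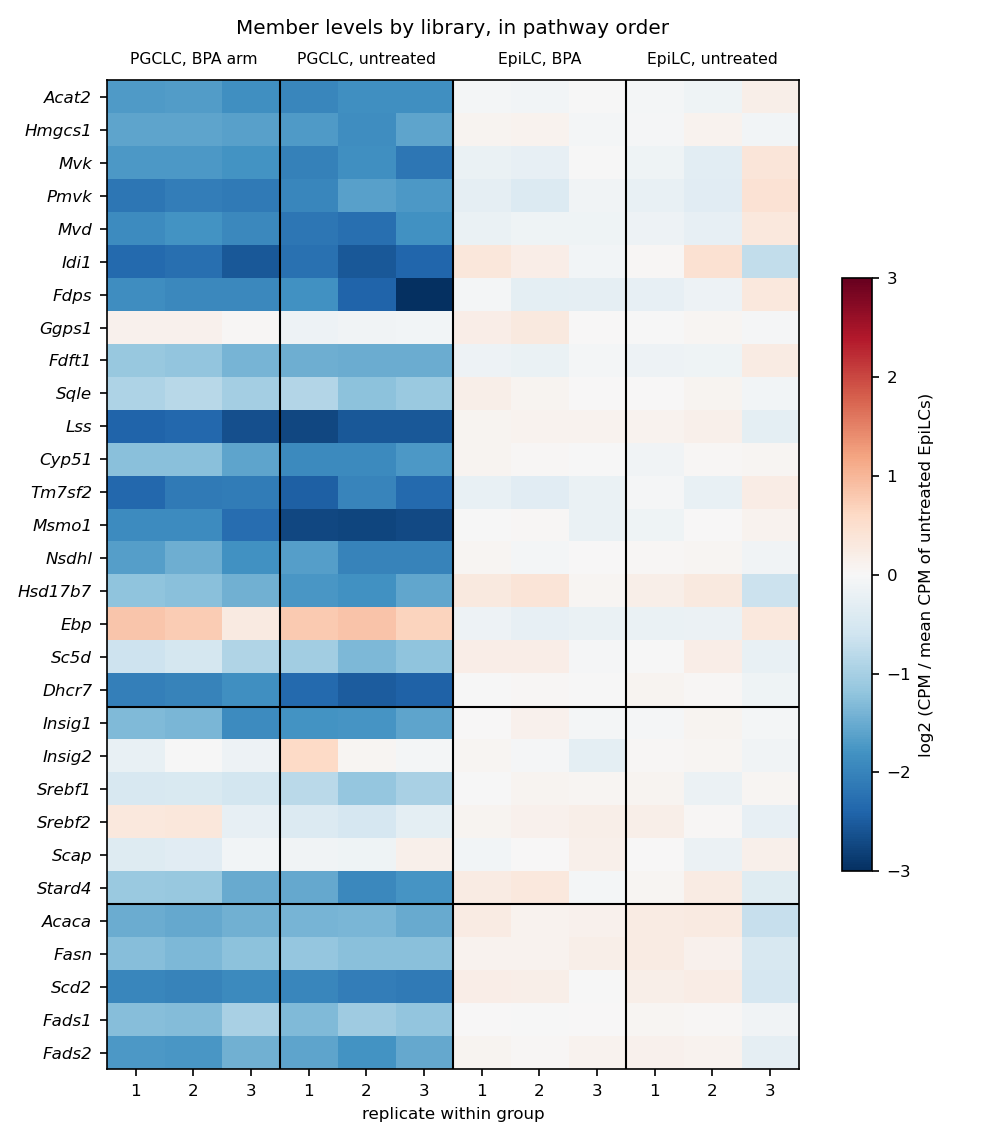
Levels of the 30 members (rows, in pathway order, with lines between sterol enzymes, regulators and fatty acid enzymes) in the 12 libraries (columns), as log2 of CPM over the mean CPM of untreated EpiLCs. Most rows are blue across all 6 PGCLC libraries, Ebp is red in PGCLCs, and Ggps1, Insig2, Srebf2 and Scap stay near 0.

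The first comparison asks how the pathway differs between germ cell-like cells and the epiblast-like cells they come from. In untreated cells, 26 of the 30 members were lower in PGCLCs than in EpiLCs and 1 was higher (edgeR quasi-likelihood test, adjusted p under 0.05, here and below), where 25.2% of all 17608 genes tested were lower and 30.4% higher, or 55.6% in either direction. The median log2 change was -1.87 over the 19 sterol enzymes, -0.69 over the 6 regulators and -1.43 over the 5 fatty acid enzymes, against 0.07 over all genes. In bulk samples, fewer cells expressing a gene and less RNA of it per cell cannot be told apart. Only the PGCLCs are stated to have been sorted, so stage and sort cannot be told apart. All 14 markers of endoderm on the list were also higher in untreated PGCLCs, with sums of 1007 to 1568 CPM in untreated PGCLCs and 21.8 to 31.7 CPM in EpiLCs of both arms, where Afp, Ttr, Gata6 and Sox17 were at 0. The part of such transcripts in the members' values was not tested.

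**Figure D2:**
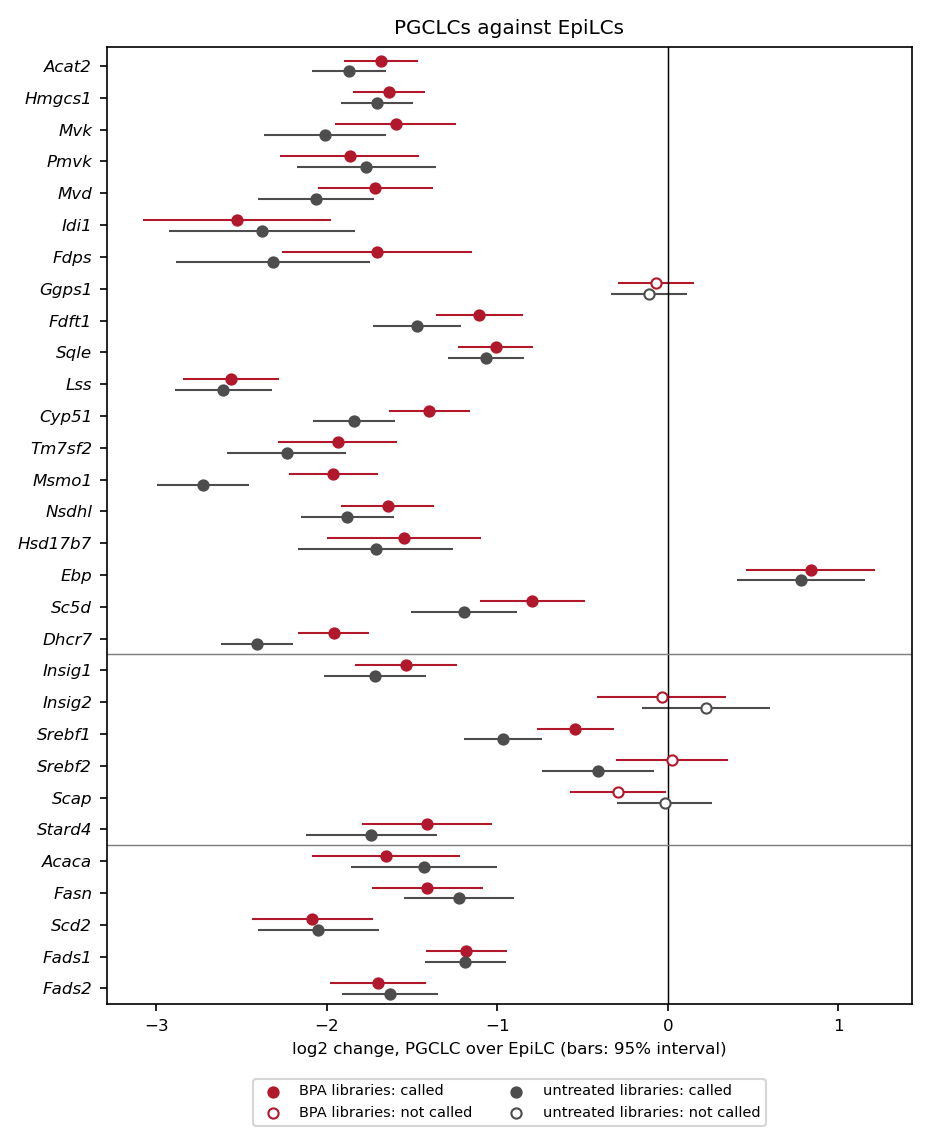
Log2 change of each member in PGCLCs over EpiLCs (x axis) with its 95% interval, for BPA libraries (red, above) and untreated libraries (grey, below); filled points passed an adjusted p of 0.05. Sterol and fatty acid enzymes lie left of 0 in both arms apart from Ebp, and the intervals of Ggps1 span 0 in both arms. The intervals of Insig2 span 0 in both arms, and that of Scap does in untreated libraries. In BPA libraries Scap lies at -0.29 (interval -0.57 to -0.01), with an open point.

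In the mevalonate steps, which build isoprenoid units from acetyl-CoA, all 7 enzymes from Acat2 to Fdps fell. Hmgcs1, the synthase of HMG-CoA, had 154, 137 and 167 CPM in untreated PGCLCs, against 483, 538 and 473 CPM in untreated EpiLCs. No PGCLC library came near an EpiLC library, and the log2 change was -1.71 ± 0.10 (SE; adjusted p = 5.97e-08). Idi1, the isomerase of the isoprenoid unit, had 19.5, 15.6 and 17.6 CPM in untreated PGCLCs, against 93.7, 126 and 54.4 CPM in untreated EpiLCs. The groups did not overlap although the EpiLC libraries spread more than 2-fold, with replicate 3 lowest, and the log2 change was -2.38 ± 0.25. The thiolase Acat2 (-1.87), the kinases Mvk (-2.01) and Pmvk (-1.77), the decarboxylase Mvd (-2.06) and the farnesyl diphosphate synthase Fdps (-2.32) changed by similar log2 amounts. The branch to longer isoprenoids stood apart: Ggps1, which makes geranylgeranyl diphosphate for protein prenylation, had 26.9 to 28.6 CPM in untreated PGCLCs and 29.2 to 31.1 CPM in untreated EpiLCs, a log2 change of -0.11 (95% interval -0.33 to 0.11; adjusted p = 0.379).

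From squalene to cholesterol, 10 of 11 enzymes fell. Msmo1, the oxidase that removes the methyl groups at C4 of the sterol, had 54.7, 53.2 and 55.6 CPM in untreated PGCLCs, against 331, 365 and 386 CPM in untreated EpiLCs. It had the largest change among members on the log2 scale, at -2.73 ± 0.12 or 6.62-fold lower (adjusted p = 9.57e-09), where the median over the 940 genes of its chromosome, 8, was -0.31. Lss, which closes the sterol rings, had 52.3, 59.9 and 60.0 CPM in untreated PGCLCs, against 378, 386 and 286 CPM in untreated EpiLCs (log2 change -2.61 ± 0.13). Dhcr7, the reductase of the last double bond on the way to cholesterol, had 39.1, 34.9 and 36.8 CPM in untreated PGCLCs, against 209, 201 and 179 CPM in untreated EpiLCs (log2 change -2.41 ± 0.10). In each of these 3 enzymes the highest PGCLC library was far under the lowest EpiLC library. The squalene synthase Fdft1 (-1.47), the epoxidase Sqle (-1.07), the demethylase Cyp51 (-1.84), the reductase Tm7sf2 (-2.24), the dehydrogenase Nsdhl (-1.88), the ketoreductase Hsd17b7 (-1.71) and the desaturase Sc5d (-1.20) also fell on the log2 scale.

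Ebp, the isomerase that shifts the double bond of the sterol ring, was the 1 member that rose. It had 35.4, 37.3 and 32.8 CPM in untreated PGCLCs, against 17.8, 18.1 and 25.7 CPM in untreated EpiLCs. The groups did not overlap, and the log2 change was 0.78 ± 0.17 (adjusted p = 0.00226). Ebp and Nsdhl are both X-linked, and the median log2 change of the 672 X-linked genes tested was 0.15, the part of which in the Ebp value was not tested. In the BPA libraries Ebp was again higher, by 0.84 ± 0.17, where the X-linked median was -0.10.

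Among the 6 regulators, Insig1, Stard4, Srebf1 and Srebf2 were lower, and Insig2 and Scap were not called. Insig1, which holds Scap in the endoplasmic reticulum, had 89.7, 91.3 and 105 CPM in untreated PGCLCs, against 307, 332 and 300.4 CPM in untreated EpiLCs, a log2 change of -1.72 ± 0.14 with no overlap. Stard4, a cytosolic sterol carrier, changed by -1.74 ± 0.18 and Srebf1 by -0.97 ± 0.10. Srebf2 had 332, 312 and 359.8 CPM in untreated PGCLCs, against 499.8, 456 and 376 CPM in untreated EpiLCs. Its groups did not overlap, but the lowest EpiLC library lay close to the highest PGCLC library. The log2 change was -0.41 ± 0.15 (adjusted p = 0.0367). This call was lost when any untreated library other than EpiLC replicate 3 was left out, with adjusted p up to 0.139. It was also lost with unlisted genes set to 9 counts (0.407). Fits that leave out a BPA library were not run for this contrast. Insig2, the second Insig, had a log2 change of 0.22 (95% interval -0.15 to 0.60) and Scap of -0.02 (-0.30 to 0.26), neither past the threshold.

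All 5 fatty acid enzymes fell. Fasn had 751, 700.2 and 703 CPM in untreated PGCLCs, against 1994, 1840.3 and 1198 CPM in untreated EpiLCs. Scd2 had 342, 316 and 305 CPM in untreated PGCLCs, against 1499, 1555 and 936 CPM in untreated EpiLCs. Both were lower in every PGCLC library, with log2 changes of -1.22 ± 0.15 for Fasn and -2.05 ± 0.16 for Scd2. Acaca, which makes the malonyl-CoA that Fasn uses, changed by -1.43, and the desaturases of polyunsaturated fatty acids, Fads1 and Fads2, by -1.19 and -1.63. Untreated EpiLC replicate 3 was the lowest of its group for 5 of 5 fatty acid enzymes, and without it the log2 changes were -1.47 for Fasn, -2.30 for Scd2 and -1.73 for Acaca.

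The BPA libraries, whose group means the untreated contrast does not compare, showed the stage difference again. Both contrasts came from 1 fit of all 12 libraries with a shared estimate of spread, so their tests are not independent. There, 25 members were lower in PGCLCs and Ebp was higher, against 25.0% of genes tested lower and 32.5% higher, or 57.5% in either direction. The 25 lower members were all among the 26 lower in untreated cells. The median log2 change was -1.65 over the sterol enzymes, -0.42 over the regulators and -1.66 over the fatty acid enzymes, against 0.13 over all genes. The exception was Srebf2, which had 553, 561 and 372 CPM in BPA-arm PGCLCs, against 473, 487 and 504 CPM in BPA EpiLCs. These groups overlapped, with 2 PGCLC libraries above and 1 below every EpiLC library, and the log2 change was 0.02 (95% interval -0.31 to 0.35). Scap, at -0.29 (adjusted p = 0.0675), was not called there. It was called in the fit of these 6 libraries alone (adjusted p = 0.0328), under RLE scaling (0.0364) and in DESeq2 (0.0211). The same held with replicate number as a block (0.0229) and without BPA-arm PGCLC replicate 3 (0.0315). Scap was not called in the other alternatives, among them the fit without BPA EpiLC replicate 3 (0.213). With unlisted genes set to 9 counts its log2 change was -0.01 (adjusted p = 0.95).

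The second comparison asks what differs in PGCLCs of the BPA arm. Of the 30 members, 6 were higher in BPA-arm PGCLCs than in untreated PGCLCs and 0 were lower, where 8.13% of 16753 genes tested were higher and 5.72% lower, or 13.9% in either direction. The 6 were 4 of 19 sterol enzymes (Cyp51, Msmo1, Sc5d and Dhcr7), all late in the pathway, and 2 of 6 regulators (Srebf1 and Srebf2). None of the 5 fatty acid enzymes was called in edgeR, in DESeq2 or at an unadjusted p under 0.05, which 28.8% of genes passed. The median log2 change was 0.22 over the sterol enzymes, 0.35 over the regulators and 0.01 over the fatty acid enzymes, against 0.01 over all genes.

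**Figure D3:**
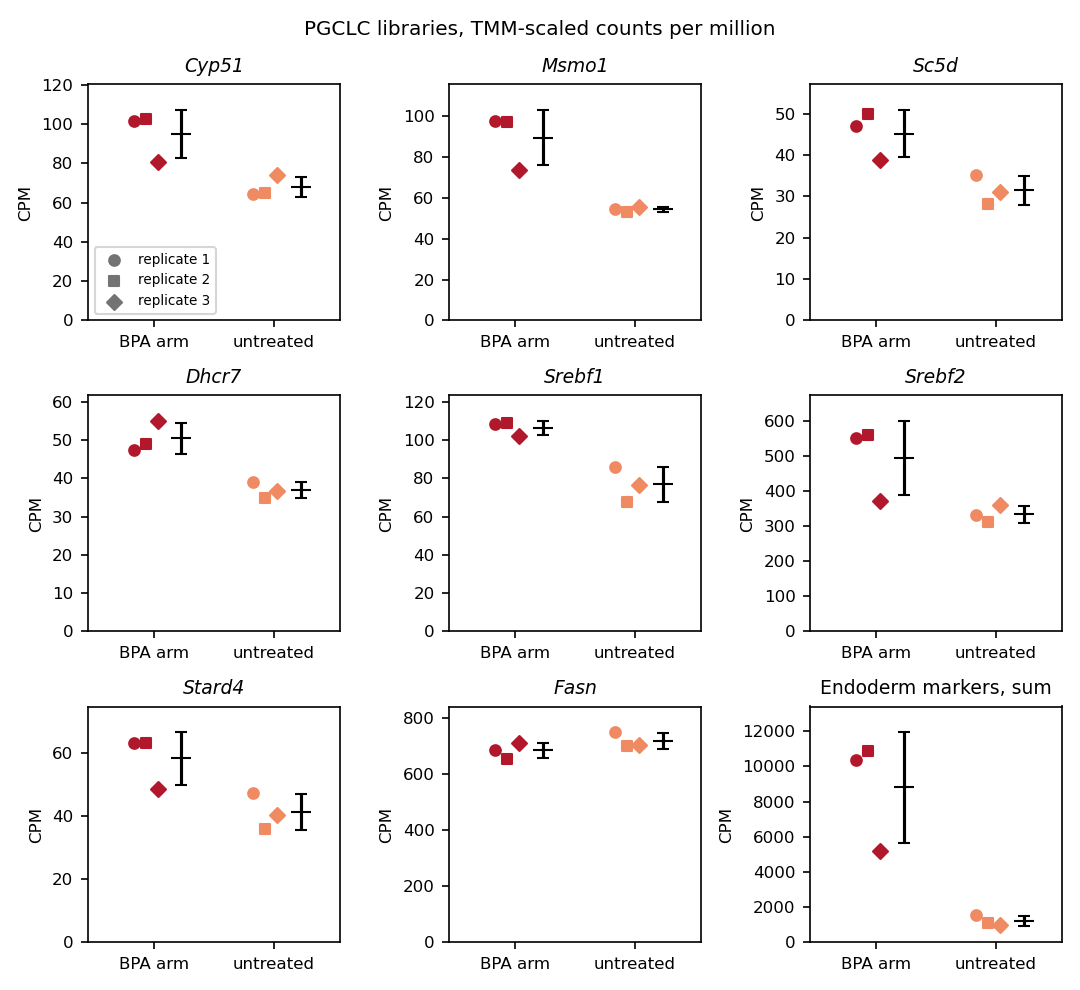
CPM in the 3 BPA-arm and 3 untreated PGCLC libraries for 7 sterol and regulatory members, Fasn and the sum of 14 endoderm markers. Bars are mean ± SD, and symbols give the replicate number, by which libraries were not paired. The groups are apart for the first 7 genes and overlap for Fasn, and BPA-arm replicate 3 is the lowest of its group for Cyp51, Msmo1, Sc5d, Srebf1, Srebf2, Stard4 and the endoderm sum, but the highest for Dhcr7 and Fasn.

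Msmo1 had 97.8, 96.9 and 73.8 CPM in BPA-arm PGCLCs, against 54.7, 53.2 and 55.6 CPM in untreated PGCLCs. Every BPA-arm library was above every untreated one, and the log2 change was 0.73 ± 0.12, 1.66-fold (adjusted p = 0.00853). It was called under all 16 alternatives tried, at log2 changes of 0.66 to 0.86. Msmo1 and Mvd lie on chromosome 8, where the median log2 change of 913 genes was 0.19 in this comparison, and the part of that shift in the Msmo1 value was not tested. The median over 623 X-linked genes was -0.32, and the X-linked members Ebp (-0.12) and Nsdhl (0.26) were not called.

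The other 3 sterol enzymes rose by less. Cyp51 had 102, 102 and 80.8 CPM in BPA-arm PGCLCs, against 64.6, 65.1 and 73.9 CPM in untreated PGCLCs (log2 change 0.50 ± 0.11, adjusted p = 0.0267). Sc5d, which introduces the double bond at C5, had 47.0, 49.9 and 38.8 CPM in BPA-arm PGCLCs, against 35.2, 28.2 and 31.1 CPM in untreated PGCLCs (0.53 ± 0.13, adjusted p = 0.0366). Dhcr7 had 47.4, 49.1 and 55.1 CPM in BPA-arm PGCLCs, against 39.1, 34.9 and 36.8 CPM in untreated PGCLCs (0.46 ± 0.10, adjusted p = 0.0193). The groups did not overlap for any of the 3, although the third BPA-arm library of Cyp51 and of Sc5d lay within 10 CPM of the highest untreated library. Of the other 15 sterol enzymes, 13 had a positive change and none was called. Hsd17b7, with a log2 change of 0.43 (adjusted p = 0.0644), and Fdft1, with 0.25 (adjusted p = 0.0872), were nearest, and Pmvk, at -0.33 (adjusted p = 0.103), was below every untreated library in every BPA-arm library. Groups did not overlap for 8 sterol enzymes and 3 regulators with the BPA arm higher and for 1 sterol enzyme with it lower, where 18.0% of genes were apart and higher and 17.5% apart and lower.

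Both SREBP genes rose. Srebf1 had 108, 109 and 102 CPM in BPA-arm PGCLCs, against 86.0, 67.8 and 76.5 CPM in untreated PGCLCs (log2 change 0.48 ± 0.10, adjusted p = 0.0170). Srebf2 had 553, 561 and 372 CPM in BPA-arm PGCLCs, against 332, 312 and 359.8 CPM in untreated PGCLCs (0.58 ± 0.15, adjusted p = 0.0414). For Srebf1 the 3 BPA-arm libraries sat close together above the untreated ones, whereas for Srebf2 replicate 3 lay just above the highest untreated library. Stard4 had 63.3, 63.2 and 48.7 CPM in BPA-arm PGCLCs, against 47.4, 36.1 and 40.5 CPM in untreated PGCLCs, with no overlap, a log2 change of 0.51 ± 0.14 and an adjusted p of 0.0516 just over the threshold. Insig1 had 125, 121 and 85.3 CPM in BPA-arm PGCLCs, against 89.7, 91.3 and 105 CPM in untreated PGCLCs, so replicate 3 lay under all 3 untreated libraries. Insig2 changed by -0.34 (adjusted p = 0.294) and Scap by -0.23 (adjusted p = 0.237), neither past the threshold.

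Fatty acid enzymes differed little between the arms, with intervals that span 0. Fasn had 688, 656 and 710.3 CPM in BPA-arm PGCLCs, against 751, 700.2 and 703 CPM in untreated PGCLCs. The groups overlapped, and the log2 change was -0.06 (95% interval -0.17 to 0.06). Scd2 changed by 0.10 (-0.04 to 0.23), Acaca by -0.05 (-0.21 to 0.11), Fads1 by 0.03 (-0.23 to 0.28) and Fads2 by 0.01 (-0.24 to 0.26). Whether these changes differ from those of the 6 members called was not tested, and the interval of Fads1 overlaps those of 5 of the 6, which start at 0.22 to 0.26.

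The calls leaned on the libraries chosen. BPA-arm replicate 3 was the lowest of its group for 15 of 19 sterol enzymes and the highest for 5 of 5 fatty acid enzymes. Without it 10 members were called higher, with Fdft1, Hsd17b7, Insig1 and Stard4 added to the 6. Without BPA-arm replicate 1, BPA-arm replicate 2 or untreated replicate 3, Msmo1 alone was called. Without untreated replicate 1 the calls were Msmo1, Dhcr7 and Srebf1, and without untreated replicate 2 they were Msmo1 and Srebf1. Log2 changes of the 6 members stayed between 0.39 and 0.86 in all 16 alternatives.

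Markers of endoderm, which secretes lipoproteins and takes up lipid, also differed between the arms. Of the 14 endoderm markers, 7 were higher in the BPA arm and 0 lower, where 8.13% of all genes tested were higher and 5.72% lower. None of the 14 had a mean of 0 in either PGCLC group. Their summed level was 10354, 10903 and 5189 CPM in BPA-arm PGCLCs, against 1568, 1127 and 1007 CPM in untreated PGCLCs, with Afp, Ttr, Apoa1 and Apob changed most (log2 changes of 6.01, 5.40, 5.35 and 4.55). BPA-arm replicate 3 was the lowest of its group for this sum, and of the 6 members called it was the lowest for Msmo1, Cyp51, Sc5d, Srebf1 and Srebf2 and the highest for Dhcr7. Germ cell markers moved as well: 4 of 7 were lower in the BPA arm, with sums of 721 to 840.1 CPM in BPA-arm PGCLCs and 947 to 1065 CPM in untreated PGCLCs, while Dppa3 was at -0.09 and not called. Ribosomal protein transcripts took 4.82% to 4.98% of counts in BPA-arm PGCLCs and 6.19% to 6.58% in untreated PGCLCs. The part of these transcripts in the members' changes was not tested.

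**Figure D4:**
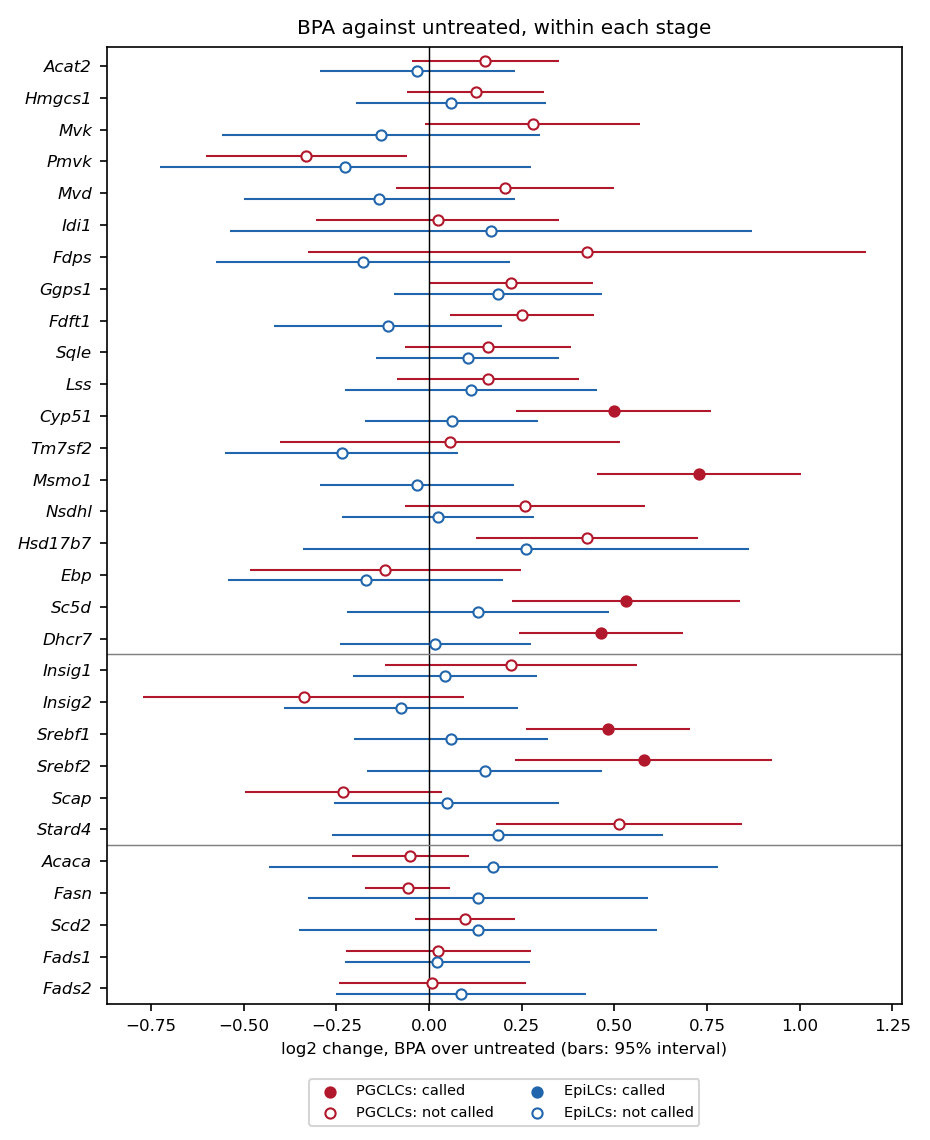
Log2 change of each member, BPA over untreated (x axis), with its 95% interval, in PGCLCs (red, above) and EpiLCs (blue, below); filled points passed an adjusted p of 0.05. The 6 filled points are Cyp51, Msmo1, Sc5d, Dhcr7, Srebf1 and Srebf2 in PGCLCs, and every EpiLC interval spans 0.

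In EpiLCs given BPA for 24 h, 0 of 30 members were called, where 0% of 15252 genes were called by edgeR. At an unadjusted p under 0.05 there were 0 members and 0.774% of genes, and DESeq2 called 0 members and 16 genes. All 30 members overlapped between the groups, where 2.5% of all genes were apart and higher and 3.53% apart and lower, so 0 of 30 is near the background. Log2 changes ran from -0.24 for Tm7sf2 to 0.26 for Hsd17b7, with medians of 0.02 over the sterol enzymes, 0.05 over the regulators and 0.13 over the fatty acid enzymes. Msmo1 had 359, 371 and 316 CPM in BPA EpiLCs, against 331, 365 and 386 CPM in untreated EpiLCs, a log2 change of -0.03 (95% interval -0.29 to 0.23). Srebf2 had 473, 487 and 504 CPM in BPA EpiLCs, against 499.8, 456 and 376 CPM in untreated EpiLCs (0.15, -0.17 to 0.47). The small positive values of all 5 fatty acid enzymes came with the low untreated replicate 3: without it Fasn was at -0.08, Scd2 at -0.08, Acaca at -0.09, Fads1 at -0.05 and Fads2 at -0.05.

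Whether the BPA difference itself differed between stages was tested as an interaction, with the EpiLC effect subtracted from the PGCLC effect. Msmo1 was the 1 member called, at 0.76 ± 0.16 (adjusted p = 0.0460), where 1.01% of 17608 genes were higher and 0.312% lower, or 1.32% in either direction. The call was held in 9 of 20 alternatives, with adjusted p up to 0.159, and the median interaction over 940 genes of chromosome 8 was 0.21. Cyp51 (0.44, adjusted p = 0.202), Dhcr7 (0.45, 0.134), Srebf1 (0.43, 0.203) and Fdft1 (0.37, 0.344) passed an unadjusted p of 0.05, as 13.9% of genes did, but not the adjusted one. For the other members called in PGCLCs, a difference between the stages was therefore not shown.

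Other genes of the pathway were read from lists of neighbouring functions. The background for their counts is 25.2% of all genes lower and 30.4% higher between the stages in untreated cells, and 5.72% lower and 8.13% higher between the arms in PGCLCs. Among 10 further sterol and isoprenoid genes, 4 were lower and 2 higher in untreated PGCLCs than in untreated EpiLCs, a share near the 55.6% of all genes called in either direction. Pdss1, for the coenzyme Q tail, changed by -1.19 on the log2 scale and Por, which passes electrons to Cyp51 and Sqle, by -0.61, while Cyb5r3, an electron donor to the desaturases, rose by 0.68. In BPA-arm PGCLCs against untreated PGCLCs 2 of these 10 were higher and 0 lower: Por averaged 107 ± 10.5 CPM in BPA-arm PGCLCs and 71.3 ± 6.40 CPM in untreated PGCLCs (log2 change 0.60 ± 0.10, adjusted p = 0.0104), and Dhdds, of dolichol synthesis, changed by 0.48.

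Of 8 genes that process SREBP or sense sterols, 3 were higher and 3 lower in untreated PGCLCs than in untreated EpiLCs, where 30.4% of all genes were higher and 25.2% lower. In BPA-arm PGCLCs against untreated PGCLCs 4 of the 8 were higher and 0 lower, where 8.13% of all genes were higher and 5.72% lower. Between the stages the log2 changes were -0.74 for Pgrmc1, a membrane haem-binding protein, 0.70 for Erlin2 and 0.64 for Erlin1, a pair of cholesterol-binding membrane proteins. Between the arms, Erlin2 averaged 142 ± 9.54 CPM in BPA-arm PGCLCs and 108 ± 1.36 CPM in untreated PGCLCs (log2 change 0.41 ± 0.07, adjusted p = 0.0111). Mbtps1, the first SREBP protease, averaged 463 ± 16.6 CPM in BPA-arm PGCLCs and 398 ± 17.7 CPM in untreated PGCLCs (log2 change 0.23 ± 0.05, adjusted p = 0.0271).

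Of 21 further fatty acid and lipogenic genes, 11 were lower and 2 higher in untreated PGCLCs than in untreated EpiLCs, where 25.2% of all genes were lower and 30.4% higher. Scd1, the other widely expressed desaturase (-1.52), the acyl-CoA ligase Acsl4 (-1.52), the ketone body ligase Aacs (-1.44) and the phosphatidate phosphatase Lpin1 (-1.27) changed most on the log2 scale. In the BPA arm 4 of the 21 were higher and 0 lower, and they were Elovl1, which lengthens very long chains, Tecr, which completes each round of lengthening, and the acyl-CoA ligases Acsl3 and Acsl1. Elovl1 averaged 55.0 ± 19.3 CPM in BPA-arm PGCLCs and 18.8 ± 1.5 CPM in untreated PGCLCs (log2 change 1.56 ± 0.26, adjusted p = 0.00898).

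Of 10 genes of sterol export, esterification, lysosomal release and their LXR receptors, 6 were higher and 1 lower in untreated PGCLCs than in untreated EpiLCs, where 30.4% of all genes were higher and 25.2% lower. The exporter Abca1 averaged 22.3 CPM in untreated PGCLCs and 0.588 CPM in untreated EpiLCs (log2 change 5.11), Abcg1 changed by 2.99 and the lysosomal sterol carrier Npc1 by 2.17. The lower gene was Nr1h3, the LXR alpha receptor, listed in no untreated PGCLC library and at a mean of 0.739 CPM in untreated EpiLCs. Genes with up to 9 reads are unlisted and were read as 0, and 9 reads are 0.412 to 0.586 CPM in untreated EpiLC libraries. The untreated EpiLC means of Abca1 and Nr1h3 lie near that limit, so the sizes of their stage changes are uncertain. In the BPA arm 6 of the 10 were higher and 0 lower. Lipa, the lysosomal lipase that frees cholesterol from esters, averaged 57.9 ± 14.0 CPM in BPA-arm PGCLCs and 15.6 ± 3.38 CPM in untreated PGCLCs (log2 change 1.90 ± 0.23), Mylip, the ligase that degrades lipoprotein receptors, changed by 1.31 and the lipoprotein receptor Scarb1 by 0.86. Nr1h3 was listed in BPA-arm PGCLCs at a mean of 1.21 CPM and in no untreated PGCLC library. Abca1 (-0.34) and Abcg1 (-0.21) were not called. The endoderm sum given above differed between the same groups, and its part in the values of these lists was not tested.

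Several members share sequence with other genes, and their counts are uncertain where reads could be split. Beside Fdps, 50-base words were shared by 39.1% of Acat2 (with Acat3 and Tcp1), 30.4% of Acaca, 26.5% of Fdft1 and 25.3% of Idi1. Hmgcs1 shared 11.6%, and an antisense gene overlaps it. Scap shared 9.96%, and an antisense gene overlaps 13.2% of its exon bases. Tm7sf2 overlaps Vps51 on the same strand over 12.1% of its exon bases. Fdft1 overlaps Ctsb on the opposite strand over 18.3% of its exon bases, and no source read here states how strand was set when reads were counted. Msmo1, Sc5d, Srebf1 and Srebf2 shared 1.33% or less, Dhcr7 1.37% and Cyp51 2.77%.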

How the data were processed

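RNA-seq of 12 libraries (2 stages, BPA or untreated, 3 each) was analysed. Per the submitters' processing notes, the tools were HTSeq, STAR, FastQC and bcl2fastq 2.19.1.403, on build mm10; other versions were not stated there. The deposited counts are whole numbers of reads for each Ensembl gene, and genes under 10 reads are not listed; unlisted genes were read as 0. Reads without a feature were 4.42% to 10.7% and ambiguous reads 4.35% to 6.07%. The authors' deposited CPM tables (1 per stage) equal the counts divided by 1 constant per library and served for symbols and 1 alternative. Symbols and coordinates of genes came from GENCODE M21 (mm10), which held 21695 of 21728 IDs, and promoter sequences from RefSeq (GRCm38.p6).

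edgeR 4.0.16 (R 4.3.3) supplied the filter (filterByExpr), the TMM scaling and the quasi-likelihood test; p-values were adjusted by Benjamini-Hochberg across every gene in a comparison, with a threshold of 0.05. BPA effects were fitted within each stage, and the stage contrasts and the interaction in 1 fit of all 12 libraries. SE is the log2 change over the square root of F, and 95% intervals use the t distribution of the fit. CPM in the text come from the fit of 12 libraries. Replicates differed by more than counting noise. DESeq2 1.42.0 and limma 3.58.1 were alternatives. The pipeline was tested on simulated data. The members and lists were chosen with earlier results of these data known. All members are named; of each other list, up to 4 called genes with the largest change, or that with the smallest p, and Prdm1, Dppa3, Pou5f1 and Dnmt3b. Some genes of the other lists are not reported here by name, but count in their list's totals. Genes named as near the threshold were chosen after their values were seen. Pou5f1 fell by 0.59 in BPA-arm PGCLCs against untreated PGCLCs (log2).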

Additional observations from a re-analysis of the deposited data

Results flagged for a closer look

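For 3 genes the test of a difference in BPA effect between PGCLCs and EpiLCs passed the threshold. Msmo1, the C4 methyl sterol oxidase, had an interaction of 0.76 ± 0.16 on the log2 scale (edgeR, adjusted p = 0.0460): its log2 change was 0.73 in PGCLCs, with all 3 BPA-arm libraries above all 3 untreated ones, and -0.03 in EpiLCs, where the groups overlapped. The Msmo1 call was lost in 11 of 20 alternatives, among them 10 of the 12 that leave out 1 library and the fit with replicate number as a block (adjusted p = 0.0823). The alternatives were not run for the interactions of Elovl1 and Lipa. Elovl1, the very long chain elongase, had an interaction of 1.57 ± 0.31 (adjusted p = 0.0322), with means of 55.0 CPM in BPA-arm PGCLCs, 18.8 CPM in untreated PGCLCs, 19.3 CPM in BPA EpiLCs and 19.7 CPM in untreated EpiLCs. Lipa, the lysosomal acid lipase, had an interaction of 1.81 ± 0.29 (adjusted p = 0.0100), with means of 57.9 CPM in BPA-arm PGCLCs, 15.6 CPM in untreated PGCLCs, 11.2 CPM in BPA EpiLCs and 10.6 CPM in untreated EpiLCs.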

How the results depend on the processing

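No value of a member that passed the threshold changed direction under any alternative. In the stage comparisons 25 to 27 members were called throughout. In EpiLCs under BPA, DESeq2 called 16 genes where edgeR called 0. In BPA-arm PGCLCs, leaving out 1 library gave 1 to 10 members (6 with all) and 668 to 3206 genes (2321 with all). Same-numbered libraries did not deviate together over all genes (correlations of -0.0214 to 0.0566 between the arms of a stage). A pairing by number that touches only some genes was not tested. With replicate number as a block, 3 members (Msmo1, Dhcr7 and Srebf1) and 1618 genes were called. For the interaction, DESeq2 called 897 genes and 2 members, the replicate block 150 genes and 0 members, and unlisted genes set to 9 counts 519 genes, against 232 genes and 1 member; leaving out 1 library gave 83 to 767 genes and 0 to 2 members. The cause of these differences was not tested; a left-out library also lowers the number of samples. Unlisted genes can hold up to 9 reads; set to 9, the calls of Srebf2 (untreated stage contrast) and Srebf1 (BPA stage contrast) were lost, and Insig2 (untreated stage contrast) and Stard4 (BPA-arm PGCLCs) were gained.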
